A study of Arabidopsis thaliana with 48 samples.

Results

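Small heat shock proteins are low-molecular-weight chaperones, and 10 of their genes were followed here among the 33977 genes listed for each organ of Arabidopsis seedlings grown in spaceflight or on the ground. The genes were taken by locus identifier from a list of the family. They encode cytosolic class I proteins (*HSP17.4*, *HSP18.2*, AT1G53540 and AT1G07400), cytosolic class II proteins (*HSP17.6II* and *HSP17.6A*), the chloroplast protein HSP21, the mitochondrial proteins HSP23.6-MITO and AT5G51440 (HSP23.5), and the endomembrane protein ATHSP22.0. RNA was sequenced from leaves and roots of 3 genotypes, which were Col-0 (wild type), *elp2-5* (a mutant of an Elongator complex subunit, Col-0 background) and *met1-7* (a mutant of the DNA methyltransferase that maintains CG methylation, Col-0 background). Seedlings were 11 days old and had grown on plates under constant light in the Veggie hardware, either on the International Space Station (spaceflight, FT) or in a ground chamber that repeated the station's conditions with a delay (ground control, GC). With 4 replicates in each of 12 groups there were 48 libraries. By the study's methods a replicate pooled plants of a pair of plates, except for a *met1-7* FT replicate from a single plate, and both mutants were each represented by one line.

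Small heat shock proteins bind proteins that have begun to unfold and keep them in a state that HSP70 and HSP101 can refold, without using ATP themselves. They assemble into large oligomers through a conserved alpha-crystallin domain. In vegetative tissue most are nearly silent until heat or another proteotoxic stress activates heat shock transcription factors, which bind repeats of the units GAA and TTC in front of the genes. Class I and class II members accumulate in the cytosol, and the organelle members protect chloroplasts, mitochondria and the secretory pathway. Several class I and class II genes are also expressed in maturing seeds.

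Levels are given as FPKM, fragments scaled to the length of the transcript and to the number of mapped fragments, so a value of 1 is a low level. No read counts accompany these values, and the depth behind each is unknown. Relative depth, estimated from rarely seen genes, spanned 0.84 to 1.19 among leaf libraries and 0.85 to 1.17 among root libraries. Its group medians were lower in FT than in GC for each genotype and organ, at 0.93 to 0.96 in FT leaves and 1.02 to 1.1 in GC leaves. Leaf markers summed to at least 39054 FPKM in leaf libraries and to at most 834 in root libraries, whereas root markers summed to at most 4.9 in leaves and to at least 431 in roots. *ELP2* was at 3.24 to 3.99 FPKM in *elp2-5* leaves and 7.38 to 9.13 in Col-0 leaves, and at 4.23 to 5.78 in *elp2-5* roots and 10.7 to 14.8 in Col-0 roots. *MET1* overlapped between *met1-7* and Col-0, at 10.8 to 15.2 and 12.7 to 14.7 FPKM in leaves, so its level did not check that label. In Col-0 GC leaf replicate 4, the sum of 16 seed markers was 1698 FPKM, against at most 4.8 in every other leaf library, and in elp2-5 GC root replicate 2 the FPKM of all genes summed to 938877, against at most 878110 in other roots. Values without these libraries are given for the called members whose comparison they enter.

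The 10 genes lie on 4 chromosomes and do not share enough sequence to be read as copies. In the TAIR10.1 annotation *HSP17.6II* (chr5:3882231-3883111) and *HSP17.6A* (chr5:3883957-3884838) are tandem neighbours with 845 bases between them, and their coding sequences were 86.6% identical. *HSP17.4* (chr3:16984118-16984867) and AT1G53540 (chr1:19980299-19981199) were 85.0% identical, and *HSP18.2* (chr5:24062323-24063300) was 77.8% identical to AT1G53540. AT1G07400 (chr1:2274926-2275783) was closest to a class I gene outside the 10, AT1G59860, at 88.6%. The mitochondrial pair, *HSP23.6-MITO* (chr4:12916926-12918110) and AT5G51440 (chr5:20891163-20892416), was 73.5% identical. *HSP21* (chr4:13818825-13819971) and *ATHSP22.0* (chr4:6370338-6371372) had no second locus in the genome that matched most of their coding sequence. *HSP21* and both mitochondrial genes have 2 exons and the other 7 genes have 1. The *HSP17.4* locus overlaps 2 annotated genes on the other strand. The libraries were made with a strand-specific kit, but whether strand was used in counting is not given in the sources used here.

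The upstream sequence was searched because the genes share a known type of control element. In the 250 bases before each annotated start, both motifs of 2 facing units, GAANNTTC and TTCNNGAA (each its own reverse complement, so a match counts for both strands, and neighbouring matches may overlap), were counted. One or the other was found in front of 5 of the 10 genes and of 16.15% of 27443 protein-coding genes. Taken singly, GAANNTTC occurred in 9.55% and TTCNNGAA in 7.68% of all genes. A run of 3 alternating units of the same spacing occurred in front of 2 of the 10 genes, *HSP17.4* and AT1G53540, and of 0.39% of all genes. Of 9 other small heat shock protein genes, 2 had a 2-unit motif and 0 had 3 units. The window runs into a neighbouring gene for 5 of the 10, for 226 of its 250 bases at AT1G07400. A match describes the letters only, and no match says only that these letters are not in this window. The last 150 bases before the start are shown for the gene with the largest averaged flight response of the tested members (AT5G51440), the pair with 3 units, a class I gene with no match (*HSP18.2*) and the gene that was low in *met1-7* (*ATHSP22.0*), 5′ to 3′ on the strand of the gene with 2-unit matches in capitals, from RefSeq TAIR10.1.
AT5G51440, chr5:20891013-20891162, plus strand: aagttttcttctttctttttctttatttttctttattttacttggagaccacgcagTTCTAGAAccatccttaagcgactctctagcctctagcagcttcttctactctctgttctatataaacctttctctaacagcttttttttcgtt
HSP17.4, chr3:16984868-16985017, minus strand: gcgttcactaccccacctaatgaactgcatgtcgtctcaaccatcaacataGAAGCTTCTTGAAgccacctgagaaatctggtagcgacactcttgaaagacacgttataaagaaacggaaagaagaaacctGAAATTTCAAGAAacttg
AT1G53540, chr1:19980149-19980298, plus strand: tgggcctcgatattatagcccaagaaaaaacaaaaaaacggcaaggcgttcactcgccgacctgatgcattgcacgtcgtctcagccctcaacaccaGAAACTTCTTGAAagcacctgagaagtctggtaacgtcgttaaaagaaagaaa
HSP18.2, chr5:24062173-24062322, plus strand: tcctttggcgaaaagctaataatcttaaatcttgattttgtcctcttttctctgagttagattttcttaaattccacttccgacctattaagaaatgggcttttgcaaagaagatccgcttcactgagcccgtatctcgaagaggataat
ATHSP22.0, chr4:6370188-6370337, plus strand: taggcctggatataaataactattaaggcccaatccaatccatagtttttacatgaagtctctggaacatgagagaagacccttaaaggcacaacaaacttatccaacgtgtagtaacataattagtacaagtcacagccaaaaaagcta

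**Figure D1:**
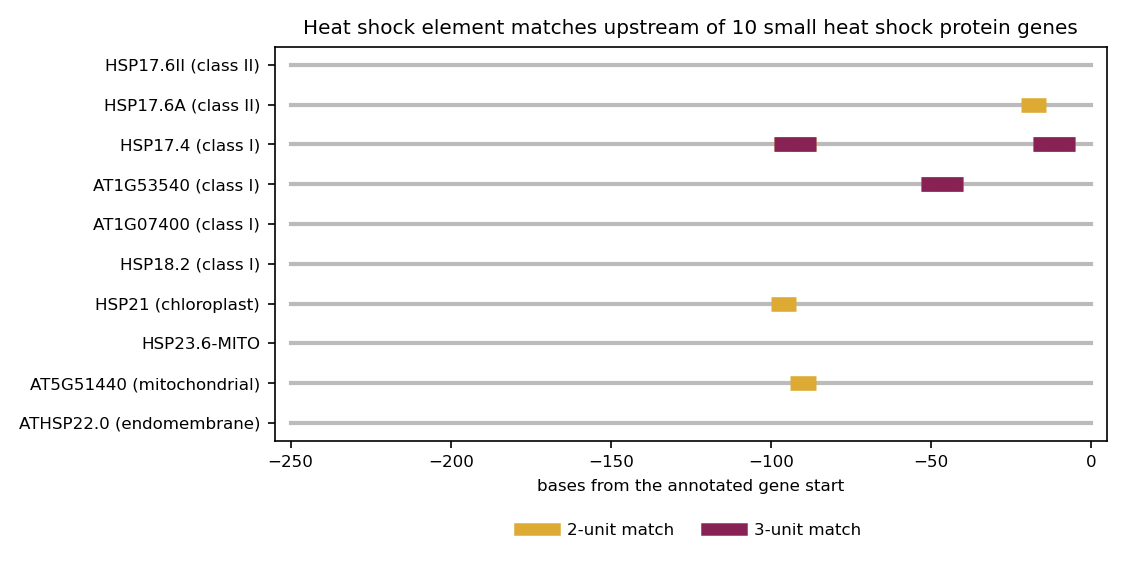
Matches to the heat shock element motifs in the 250 bases before the annotated start of each of the 10 genes, with the distance from the start in bases on the x axis, 2-unit matches in yellow and 3-unit matches in purple. *HSP17.4* has 2 runs of 3 units, AT1G53540 has 1, and *HSP17.6A*, *HSP21* and AT5G51440 each have a single 2-unit match.

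In the ground control, and over all libraries of an organ, the family was low and unequal. Only AT5G51440, *HSP18.2* and AT1G07400 were at or above 1 FPKM in all 48 libraries. Per kilobase, *HSP18.2* was the highest member in GC leaves, at 5.02 ± 1.10 FPKM (SD, n = 4) in Col-0, followed by AT1G07400 at 3.70 ± 0.77 and AT5G51440 at 2.49 ± 0.70. The first of these neighbours in Col-0 GC leaves overlapped in range, 3.82 to 6.49 for *HSP18.2* and 2.59 to 4.34 for AT1G07400. In Col-0 GC roots *HSP18.2* was at 10.4 ± 1.21, AT5G51440 at 8.95 ± 2.69 and AT1G07400 at 3.08 ± 0.40 FPKM. Here the first pair overlapped too, 9.05 to 11.4 against 6.63 to 12.6 FPKM. The leaf and root values come from separate tables and were not tested against each other. Over the 24 libraries of an organ, FT and GC together, the class II genes, *HSP17.4* and AT1G53540 had medians of 0.26 to 0.69 FPKM in leaves, and of 0.33 to 1.79 in roots. The chloroplast gene *HSP21* was listed at 0 in 19 of 24 leaf libraries and reached 0.06 FPKM there, whereas in roots it was above 0 in every library, with a median of 0.33.

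Genes were tested in an organ where 4 or more of its 24 libraries reached 1 FPKM, a filter passed by 19877 leaf genes and 21000 root genes. Of the 10 genes, 4 passed in leaves (*HSP17.4*, *HSP18.2*, AT1G07400 and AT5G51440) and 5 in roots (these and AT1G53540). *HSP17.4* passed in leaves on 5 libraries, 4 of them FT, and 4 of the 5 were *elp2-5*, so its entry was not independent of either difference and its leaf values are given as a description. The other 3 were at or above 1 FPKM in every leaf library. Tests were made on log2(FPKM + 0.5) with limma and Benjamini-Hochberg adjustment over all genes tested, and a gene was called at an adjusted p under 0.05.

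In leaves AT5G51440, AT1G07400 and *HSP18.2* were higher in FT when the genotypes were averaged. AT5G51440, a mitochondrial member, had the largest value of the tested members in each genotype. In Col-0 leaves it was at 4.57, 9.19, 7.29 and 4.12 FPKM in the 4 FT replicates and at 3.07, 1.65, 3.07 and 2.17 in GC. In *elp2-5* leaves it was at 4.24, 4.00, 6.06 and 5.64 in FT and at 2.55, 2.57, 2.19 and 1.38 in GC. In *met1-7* leaves it was at 7.39, 13.36, 11.89 and 7.17 in FT and at 2.54, 3.85, 4.16 and 4.37 in GC. All FT replicates lay above all GC replicates in each genotype. The log2 fold changes were 1.15 ± 0.25 (SE, limma adjusted p = 0.00665) in Col-0, 1.05 ± 0.25 (limma adjusted p = 0.0533) in *elp2-5* and 1.28 ± 0.25 (limma adjusted p = 0.00301) in *met1-7*, and 1.16 ± 0.15 (limma adjusted p = 1.92e-05) averaged over the genotypes. With only the 8 libraries of Col-0 leaves in the fit, the Col-0 call was lost (limma adjusted p = 0.059), and without Col-0 GC leaf replicate 4 the value was 1.10 (limma adjusted p = 0.0142) and the averaged value 1.14 (limma adjusted p = 3.66e-05). The *elp2-5* value passed with a pseudocount of 0.1 FPKM (limma adjusted p = 0.0491).

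AT1G07400, a cytosolic class I member, followed the same order of groups. It was at 6.28, 7.59, 6.35 and 4.40 FPKM in Col-0 FT leaves and at 4.01, 3.86, 4.34 and 2.59 in GC, with no overlap. In *elp2-5* leaves the FT replicates spanned 4.42 to 5.97 and the GC replicates 2.73 to 4.01, and in *met1-7* leaves 6.04 to 14.1 and 2.82 to 5.69, again without overlap. The highest value, 14.1 FPKM, was that of *met1-7* FT leaf replicate 2, which was also the highest of its group for AT5G51440. The averaged log2 fold change of AT1G07400 was 0.70 ± 0.13 (limma adjusted p = 0.000579). Taken singly, it was called in *met1-7* (0.89 ± 0.23, limma adjusted p = 0.0132) and missed the threshold in Col-0 (0.66 ± 0.23, limma adjusted p = 0.0583) and *elp2-5* (0.54 ± 0.23, limma adjusted p = 0.266). Without Col-0 GC leaf replicate 4 the averaged value was 0.65 (limma adjusted p = 0.000935) and the Col-0 value 0.52 (limma adjusted p = 0.146). The Col-0 value passed without Col-0 FT leaf replicate 4 (0.80, limma adjusted p = 0.0315). The *met1-7* call was lost without met1-7 GC leaf replicate 4 (0.73, limma adjusted p = 0.0502) and with only the 8 libraries compared (limma adjusted p = 0.086).

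*HSP18.2*, the most abundant class I member, was higher in FT leaves of Col-0 and *met1-7*, and in *elp2-5* its FT and GC values were alike in range. Its FPKM in Col-0 leaves were 9.63, 7.78, 7.66 and 7.45 in FT and 6.49, 4.85, 4.91 and 3.82 in GC. In *met1-7* leaves they were 9.96, 11.51, 9.84 and 7.87 in FT and 5.50, 5.53, 5.88 and 7.06 in GC. In *elp2-5* leaves they were 8.56, 10.37, 6.79 and 7.42 in FT and 6.82, 6.26, 9.98 and 11.31 in GC. The groups did not overlap in Col-0 or *met1-7*, and in *elp2-5* the GC range of 6.26 to 11.31 enclosed the FT range of 6.79 to 10.37. The log2 fold changes were 0.66 ± 0.17 in Col-0 (limma adjusted p = 0.0169), 0.66 ± 0.17 in *met1-7* (limma adjusted p = 0.0158) and -0.03 ± 0.17 in *elp2-5* (limma adjusted p = 0.971). The difference of the *elp2-5* response from that of Col-0 was -0.69 ± 0.24, with an unadjusted p of 0.00998 and an adjusted p of 0.357 by limma, and so was not called. Averaged over the genotypes the log2 fold change was 0.43 ± 0.10 (limma adjusted p = 0.00293). Without Col-0 GC leaf replicate 4 the averaged value was 0.39 (limma adjusted p = 0.0048) and the difference between the responses -0.58 (limma adjusted p = 0.396). The Col-0 call was lost with only the libraries compared (limma adjusted p = 0.0514), and without the library with seed markers, Col-0 GC leaf replicate 4, it was 0.55 (limma adjusted p = 0.0459). The *met1-7* call was lost under quantile normalization (0.56, limma adjusted p = 0.06) and without met1-7 FT leaf replicate 2 (0.58, limma adjusted p = 0.0543) or met1-7 GC leaf replicate 2 (0.63, limma adjusted p = 0.0505).

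*HSP17.4*, another class I member, was near the lower limit of the tests. It was at 0.36, 1.76, 0.68 and 0.59 FPKM in Col-0 FT leaves and at 0.33, 0.20, 0.43 and 0.22 in GC. The *elp2-5* FT replicates were the highest, at 0.70 to 1.81 against 0.37 to 1.01 in GC. FT and GC overlapped in every genotype. The averaged log2 fold change was 0.66 ± 0.16, and 0.64 without Col-0 GC leaf replicate 4, given with no test because of how the gene entered.

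**Figure D2:**
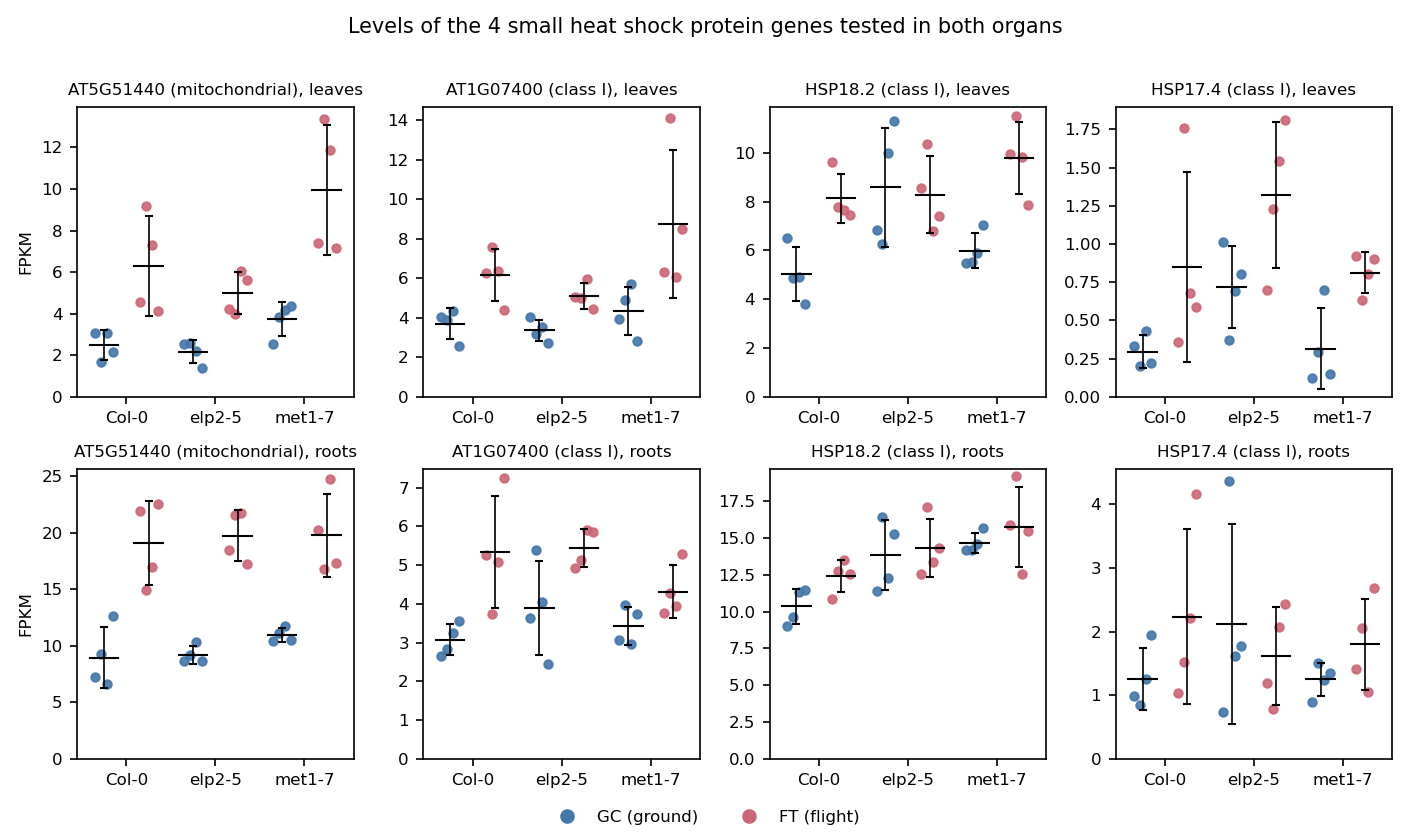
FPKM of the 4 genes tested in both organs, with leaves above and roots below, the genotypes on the x axis, GC libraries as blue points and FT libraries as red points, and lines for the mean ± SD of the 4 replicates. FT points of AT5G51440 lie above all GC points in every genotype and organ, and *HSP18.2* in *elp2-5* GC leaves reaches 11.31 FPKM, above every other GC leaf library.

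Across genes, the FT response of these members in leaves stood beside a broad response. The share of all tested genes called higher was 8.71% in Col-0, 0.644% in *elp2-5*, 9.53% in *met1-7* and 21.5% in the averaged comparison, and of the 3 members at or above 1 FPKM in every leaf library 2, 0, 3 and 3 were called higher and 0 lower. The median log2 fold change of these 3 members was 0.66 in Col-0, 0.54 in *elp2-5*, 0.89 in *met1-7* and 0.70 averaged, beside medians over all genes of 0.04, 0.03, 0.07 and 0.05. Median-ratio scaling changed the split of averaged calls in leaves from 4280 higher and 1535 lower to 2268 and 2834, and that in roots from 2951 and 1436 to 1945 and 2367. In single genotypes it changed the splits in leaves from 1732 higher and 627 lower to 1113 and 1360 in Col-0, from 128 and 31 to 104 and 84 in *elp2-5* and from 1895 and 672 to 867 and 1268 in *met1-7*, and those in roots from 438 and 170 to 164 and 320, from 750 and 674 to 580 and 869 and from 179 and 70 to 118 and 237. Median-ratio scaling left the same number of averaged calls, 4 in leaves with *HSP17.4* included and 2 in roots, all higher. Of the 4 leaf calls, that of *HSP17.4* is a description only, because of how the gene entered.

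In roots AT5G51440 was the member with the clearest flight response. It was at 21.90, 14.92, 16.98 and 22.55 FPKM in Col-0 FT roots and at 7.27, 9.29, 6.63 and 12.60 in GC. In *elp2-5* roots it was at 18.48, 21.55, 21.74 and 17.27 in FT and at 8.63, 9.16, 10.34 and 8.62 in GC. In *met1-7* roots it was at 20.26, 16.80, 24.74 and 17.29 in FT and at 10.40, 11.15, 11.72 and 10.51 in GC. The FT means of the 3 genotypes, 19.1, 19.8 and 19.8 FPKM, were closer to each other than the replicates of one group, and no FT library was at or below any GC library. The log2 fold changes were 1.07 ± 0.16 (limma adjusted p = 0.00153) in Col-0, 1.06 ± 0.16 (limma adjusted p = 0.00117) in *elp2-5* and 0.81 ± 0.16 (limma adjusted p = 0.0192) in *met1-7*, and 0.98 ± 0.09 (limma adjusted p = 1.04e-06) averaged. Without elp2-5 GC root replicate 2 the *elp2-5* value was 1.06 (limma adjusted p = 0.00381) and the averaged value 0.98 (limma adjusted p = 2.87e-06). The Col-0 call was lost with only the libraries compared (limma adjusted p = 0.0655). The *met1-7* call was lost, at log2 fold changes of 0.79, when met1-7 FT root replicate 1 (limma adjusted p = 0.0688), met1-7 GC root replicate 1 (limma adjusted p = 0.0548) or met1-7 GC root replicate 4 (limma adjusted p = 0.066) was left out.

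AT1G07400 also rose in roots in the averaged comparison, by 0.48 ± 0.10 on the log2 scale (limma adjusted p = 0.00253). In Col-0 roots it was at 5.26, 3.74, 5.09 and 7.25 FPKM in FT and at 2.66, 2.84, 3.25 and 3.55 in GC, without overlap. The Col-0 value, 0.68 ± 0.18 (limma adjusted p = 0.0392), rested on single libraries and settings. Without Col-0 FT root replicate 4 it was 0.53 (limma adjusted p = 0.139), and leaving out Col-0 FT root replicate 3 or Col-0 GC root replicates 1, 2 or 3 also ended the call, with adjusted p from limma of 0.0579 to 0.109. No filter, median-ratio scaling, quantile normalization and the fit of the compared libraries alone gave adjusted p of 0.0515 to 0.0944 by limma. In *elp2-5* and *met1-7* roots AT1G07400 was 0.48 ± 0.18 and 0.29 ± 0.18 higher and not called. Without elp2-5 GC root replicate 2 the *elp2-5* value was 0.64 (limma adjusted p = 0.0527) and the averaged value 0.54 (limma adjusted p = 0.000603).

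The other tested class I genes did not pass in roots. *HSP18.2* was at 10.87 to 13.48 FPKM in Col-0 FT roots and 9.05 to 11.44 in GC, with an averaged log2 fold change of 0.13 ± 0.07 (limma adjusted p = 0.192). *HSP17.4* was at 0.23 ± 0.21 and AT1G53540 at 0.13 ± 0.18 on the same scale (limma adjusted p = 0.458 and 0.624). Both were highest in Col-0 FT root replicate 4 among the Col-0 roots, at 4.17 and 4.70 FPKM, and *HSP17.4* reached 4.37 FPKM in elp2-5 GC root replicate 2. In roots the share of all genes called higher was 2.09% in Col-0, 3.57% in *elp2-5*, 0.852% in *met1-7* and 14.1% averaged, and 2, 1, 1 and 2 of the 5 tested members were called higher, with 0 lower. In the same order, 170, 674, 70 and 1436 of 21000 genes were called lower. The median of the 5 members was 0.55, 0.26, 0.29 and 0.23, beside medians over all genes of 0.04, 0.01, 0.04 and 0.03.

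The flight responses of the genotypes were compared directly. For *elp2-5* against Col-0 the share of all genes called in either direction was 0.0151% in leaves and 0% in roots, and for *met1-7* against Col-0 it was 0% in both organs. None of the tested members was called by limma in any of these 4 comparisons, and 1 had an unadjusted p under 0.05, *HSP18.2* in *elp2-5* leaves.

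**Figure D3:**
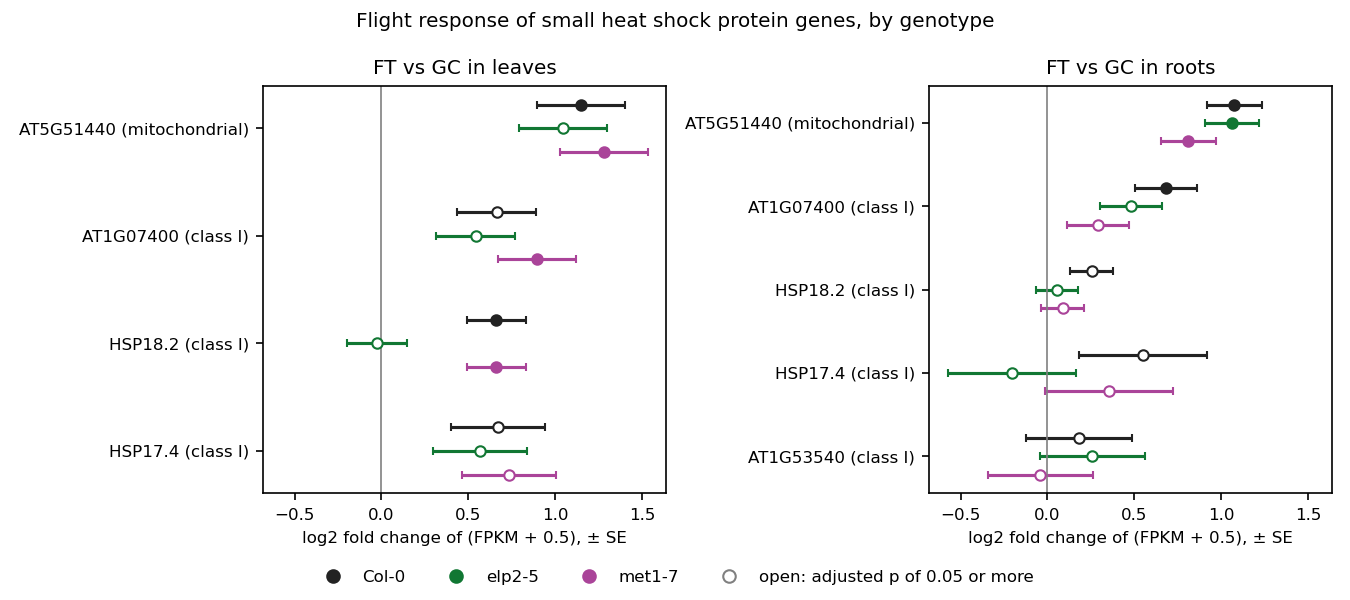
Log2 fold change of FPKM + 0.5 between FT and GC in leaves and roots, with bars of 1 SE, for each tested gene and genotype, where filled points have an adjusted p under 0.05. AT5G51440 lies between 0.81 and 1.28 in all 6 comparisons, and *HSP18.2* in *elp2-5* leaves lies at -0.03.

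*HSP18.2* was called higher in the mutants than in Col-0 in 3 of the 4 comparisons on the ground and in none of those in FT. Of all genes, 37.6% were called higher in *elp2-5* GC leaves, 18.9% in *elp2-5* GC roots and 3.59% in *met1-7* GC roots. In FT leaves *HSP18.2* differed by 0.02 in *elp2-5* and 0.25 in *met1-7* (limma adjusted p = 0.953 and 0.425). In FT roots it differed by 0.19 and 0.32 (limma adjusted p = 0.227 and 0.138). In *met1-7* GC leaves, at 5.50 to 7.06 FPKM, it overlapped with Col-0 and was not called (0.25 ± 0.17, limma adjusted p = 0.354). In GC leaves the *elp2-5* replicates spanned 6.26 to 11.31 FPKM and those of Col-0 3.82 to 6.49, which overlap (log2 fold change 0.70 ± 0.17, limma adjusted p = 0.00185, and 0.59 with an adjusted p of 0.00913 without Col-0 GC leaf replicate 4). In GC roots of *met1-7* it was at 14.21, 14.21, 14.63 and 15.66 FPKM, above all Col-0 replicates at 9.05, 9.62, 11.33 and 11.44 (0.49 ± 0.12, limma adjusted p = 0.0156). In GC roots of *elp2-5* it was at 11.41 to 16.46 FPKM, in overlap with Col-0 (0.39 ± 0.12, limma adjusted p = 0.0144). Averaged over environments, roots gave 0.29 ± 0.09 for *elp2-5* and 0.41 ± 0.09 for *met1-7* (limma adjusted p = 0.00697 and 0.00258). Both averaged root values held under every alternative tried. The single *elp2-5* GC root call was lost without elp2-5 GC root replicate 2, whose FPKM sum stood apart (0.31, limma adjusted p = 0.0585), without Col-0 GC root replicate 1 (limma adjusted p = 0.0526) and with only the libraries compared (limma adjusted p = 0.0522). The *met1-7* GC root call was lost without Col-0 GC root replicate 1 or 2 (limma adjusted p = 0.0539 and 0.0541). Without elp2-5 GC root replicate 2 the averaged *elp2-5* value was 0.25 (limma adjusted p = 0.0174).

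The averaged comparison of *elp2-5* with Col-0 in leaves turned on the scaling. In GC leaves alone the *HSP18.2* call held in all 15 alternatives, both scalings included (limma adjusted p up to 0.0319). All genes together were shifted by a median log2 of 0.13 in the averaged comparison, a shift that median-ratio scaling reduced to 0.01 and quantile normalization to -0.02, and the split of calls went from 9099 higher and 3627 lower to 5924 and 5842 and to 5530 and 6206. As deposited, *HSP18.2* was called higher in *elp2-5* (0.36 ± 0.12, limma adjusted p = 0.0134). The call was lost with median-ratio scaling (0.23, limma adjusted p = 0.13) and with quantile normalization (0.17, limma adjusted p = 0.277). *HSP17.4*, given with no test, differed by 0.54 ± 0.19, and by 0.30 with quantile normalization. Under quantile normalization AT1G07400 and AT5G51440 were called lower instead (-0.38 and -0.42, limma adjusted p = 0.0439 and 0.046), where the deposited scale gave -0.17 and -0.21. Without Col-0 GC leaf replicate 4 the deposited scale gave 0.30 for *HSP18.2* (limma adjusted p = 0.0339), 0.52 for *HSP17.4*, -0.24 for AT1G07400 and -0.23 for AT5G51440.

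AT5G51440 was the member called higher in *met1-7* leaves. Its averaged log2 difference from Col-0 was 0.57 ± 0.18 (limma adjusted p = 0.0247), with FT means of 9.95 and 6.29 FPKM and GC means of 3.73 and 2.49. The call was lost when any of 5 libraries was left out, Col-0 FT leaf replicates 1 and 4, Col-0 GC leaf replicate 2 and met1-7 FT leaf replicates 2 and 3, with values of 0.49 to 0.53 and limma adjusted p of 0.0527 to 0.0593, and it was 0.55 (limma adjusted p = 0.0451) without Col-0 GC leaf replicate 4. Of the 3 members at or above 1 FPKM in every leaf library, 1 was called higher in *elp2-5* GC, 0 in *elp2-5* FT, 1 in the *elp2-5* average, 0 in *met1-7* GC, 0 in *met1-7* FT and 1 in the *met1-7* average. The matching shares of all genes called higher were 37.6%, 35.5%, 45.8%, 7.40%, 3.70% and 11.3%. Of the 5 tested in roots, the counts in the same order were 1, 0, 1, 1, 0 and 1, beside 18.9%, 15.6%, 24.2%, 3.59%, 2.67% and 7.77%. No tested member was called lower in these 12 comparisons. Of all genes, 743 to 3627 of 19877 in leaves and 580 to 5858 of 21000 in roots were called lower. With median-ratio scaling the split of all calls for *elp2-5* leaves went from 7465 higher and 2798 lower to 4471 and 4615 in GC and from 7055 and 2965 to 4506 and 4775 in FT, and with quantile normalization that for *met1-7* FT leaves went from 735 and 743 to 686 and 1138. The comparisons of a mutant with Col-0 share the Col-0 libraries with the flight comparisons, so they are not independent of them.

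The members below the filter were described by their values, and they were fitted only in an alternative without a filter, with 26903 genes in leaves and 27101 in roots. *ATHSP22.0*, the endomembrane chaperone, was the member that differed most plainly in *met1-7*. In leaves it was listed at 0 in all 8 *met1-7* libraries, in 2 of 8 Col-0 libraries and in 3 of 8 *elp2-5* libraries, and its highest leaf value was 0.23 FPKM. In Col-0 roots it was at 0.51, 0.32, 0.28 and 0.92 FPKM in FT and at 0.51, 0.43, 0.25 and 0.23 in GC. In *met1-7* roots it was at 0.22, 0.05, 0.00 and 0.15 in FT and at 0.00, 0.13, 0.15 and 0.00 in GC, below all Col-0 roots of the same environment. The log2 difference without the filter was -0.65 ± 0.14 averaged over environments (limma adjusted p = 0.00311, with 6.78% of genes called lower), -0.71 ± 0.19 in FT (limma adjusted p = 0.0383, with 2.33% called lower) and -0.58 ± 0.19 in GC (limma adjusted p = 0.0803). With a pseudocount of 0.1 FPKM the averaged difference was -1.55. The averaged call held when each library was left out in turn (-0.56 to -0.70, limma adjusted p up to 0.00842), and the FT call was lost without Col-0 FT root replicate 1 or 4 or met1-7 FT root replicate 2, 3 or 4 (limma adjusted p of 0.0524 to 0.148). DNA methylation at the locus was not analysed here.

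AT1G53540, a class I gene, was low in leaves and had its highest group mean in *elp2-5* FT. There it was at 0.71, 1.13, 1.08 and 0.57 FPKM, above every replicate of *elp2-5* GC leaves (0.12, 0.15, 0.10 and 0.24) and of Col-0 FT leaves (0.06, 0.30, 0.29 and 0.54). In *met1-7* leaves it was at 0.17 to 0.53 FPKM in FT and at 0.18 to 0.76 in GC, the latter in overlap with *elp2-5* FT. Without the filter its flight response in *elp2-5* leaves was 1.06 ± 0.20 (limma adjusted p = 0.0182, with 0.446% of genes called higher) and its difference from Col-0 in FT leaves was 0.80 ± 0.20 (limma adjusted p = 0.00303, with 28.2% called higher). The flight response was no longer called without elp2-5 FT leaf replicate 2 or 3 or elp2-5 GC leaf replicate 1 or 3, with adjusted p from limma of 0.0506 to 0.071. The difference from Col-0 held without each library in turn. The flight response of *elp2-5* against that of Col-0 was 1.16 ± 0.28 with an unadjusted p of 0.000492 and an adjusted p of 0.241 by limma.

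The organelle members *HSP23.6-MITO* and *HSP21* stayed below 1 FPKM in nearly all libraries. *HSP23.6-MITO* was at 0.25, 0.28, 0.13 and 0.21 FPKM in Col-0 FT leaves and at 0.00, 0.09, 0.04 and 0.00 in GC, without overlap. FT and GC overlapped in leaves of *elp2-5* (0.05 to 0.37 against 0.00 to 0.16) and *met1-7* (0.06 to 0.52 against 0.00 to 0.12). Without the filter its leaf response was not called in Col-0, *elp2-5* or *met1-7* alone (limma adjusted p = 0.0862, 0.564 and 0.174). Its averaged response in roots was 0.102 ± 0.155 (limma adjusted p = 0.711). Its averaged flight response in leaves without the filter was 0.33 ± 0.09 (limma adjusted p = 0.0102, with 15.7% of genes called higher). This call held in all 25 alternatives tried without the filter, and was 0.93 with a pseudocount of 0.1 FPKM and 0.32 (limma adjusted p = 0.0154) without Col-0 GC leaf replicate 4. *HSP21* was at 0.53, 0.64, 0.61 and 0.30 FPKM in *elp2-5* GC roots, above Col-0 GC roots at 0.05, 0.14, 0.16 and 0.24 (0.65 ± 0.18, limma adjusted p = 0.00937, with 14.9% of genes called higher). That call held without elp2-5 GC root replicate 2 (0.59, limma adjusted p = 0.0294) and without every other library of the pair in turn. In the same comparison *HSP23.6-MITO* was 0.72 ± 0.27 higher (limma adjusted p = 0.0478), which was lost in 7 of 9 alternatives, without elp2-5 GC root replicate 2 among them (0.55, limma adjusted p = 0.154). *HSP21* was also without overlap between Col-0 FT roots (0.26 to 0.43 FPKM) and GC roots (0.05 to 0.24) but was not called. Its flight response in roots was 0.37 in Col-0, -0.33 in *elp2-5*, 0.11 in *met1-7* and 0.05 averaged. In FT roots *elp2-5* differed from Col-0 by -0.05 ± 0.18, unlike in GC.

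The class II genes followed single libraries more than groups. *HSP17.6A* was at 4.39 FPKM in elp2-5 GC root replicate 2 and at 0.23 to 0.73 in the other 3 replicates of that group, and at 2.31 in met1-7 FT leaf replicate 2 beside 0.39 to 0.66. Its tandem neighbour *HSP17.6II* was at 1.64 FPKM in the same *elp2-5* root library, where the others were at 0.00 to 0.55. In Col-0 FT root replicate 4, *HSP17.6A* was at 2.00 and *HSP17.6II* at 1.94 FPKM. Neither gene was called in any comparison without the filter. In Col-0 GC leaf replicate 4, the library with seed markers, *HSP17.6A* was at 0.58 and *HSP17.6II* at 0.52 FPKM, within the range of the other Col-0 GC leaves.

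**Figure D4:**
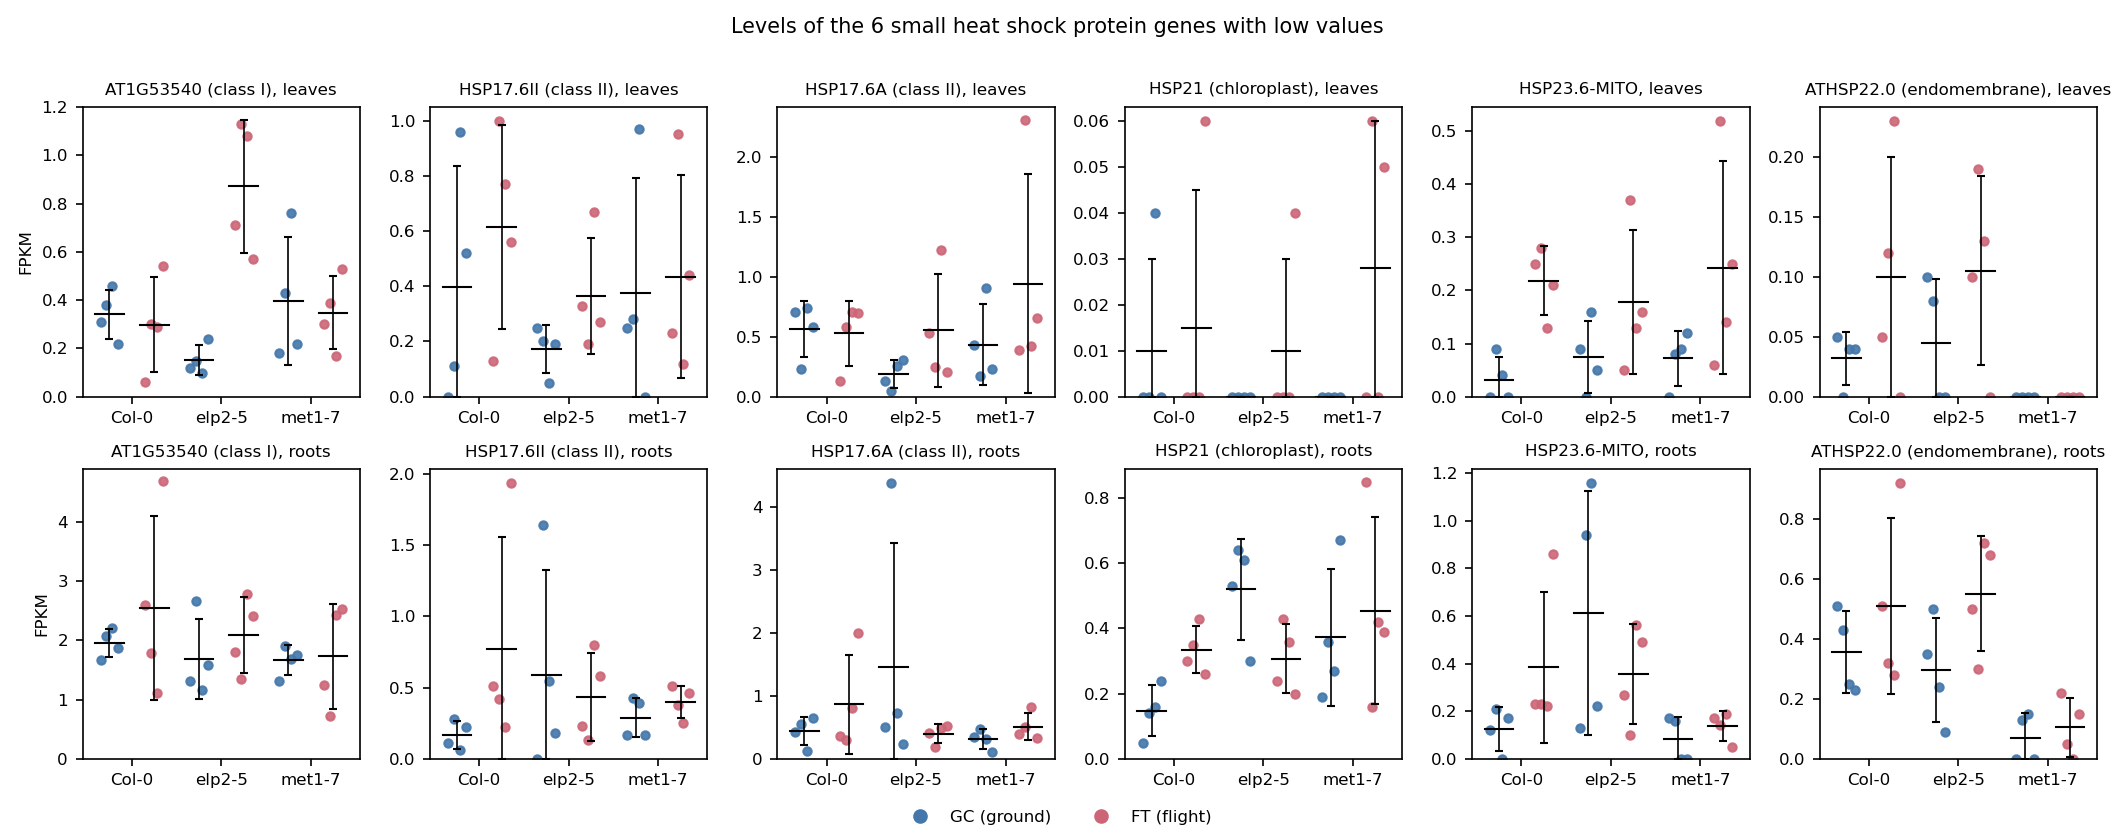
FPKM of the 6 genes with low values, with leaves above and roots below, GC libraries as blue points and FT libraries as red points, and lines for the mean ± SD of the 4 replicates with the lower bar ended at 0. *ATHSP22.0* is at 0 in all 8 *met1-7* leaf libraries, and AT1G53540 in *elp2-5* FT leaves lies at 0.57 to 1.13 FPKM.

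The members did not vary as one set. Over the 24 leaf libraries the 6 pairs of tested members had Pearson correlations of 0.41 to 0.84 on the log2 scale. The highest was that of AT1G07400 with AT5G51440. The median was 0.45, which was 0.17 once group means were taken out. *HSP17.4* is part of these leaf values, although it entered mostly through FT and *elp2-5* libraries. The pairs without it were at 0.84, 0.44 and 0.43. Over the 24 root libraries the 10 pairs ran from -0.28 to 0.70 with a median of 0.33, and 0.30 without group means. The highest root pair was again AT1G07400 with AT5G51440, and the lowest was AT1G53540 with *HSP18.2*. These are descriptions over libraries that share groups, and any shared preparation of libraries was not examined. Genes outside the family were also ranked by likeness to the mean of the 4 leaf members, *HSP17.4* included. The most alike in leaves were AtCDC48B (r = 0.91), AT1G61690 (0.89), UPL5 (0.89), MBF1C (0.88) and AT1G51200 (0.86). In roots, with 5 members, they were ARFB1C (0.81), RHC1A (0.80), HB32 (0.77), TLP7 (0.76) and GP ALPHA 1 (0.75).

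The rest of the heat shock pathway was read from lists of other small heat shock proteins, of regulators and of large chaperones. Averaged over genotypes, 4 of 8 tested other small heat shock protein genes were called higher in FT leaves and 6 of 9 in FT roots, with 0 lower, beside 21.5% of all genes in leaves and 14.1% in roots. They include AT2G19310 (0.41 ± 0.07 in leaves and 0.66 ± 0.07 in roots, limma adjusted p = 0.000195 and 7.91e-06) and AT1G54050 (0.44 ± 0.09 and 0.34 ± 0.08). The class I gene AT1G59860 was at 0.46 ± 0.12 and 0.41 ± 0.12 and was called in both organs, and AT2G29500, also class I, was at 0.22 ± 0.10 in leaves, not called (limma adjusted p = 0.1), and at 0.46 ± 0.06 in roots (limma adjusted p = 3.57e-05). Of the heat shock regulators, 7 of 13 were called higher in leaves and 7 of 14 in roots. MBF1C, a transcriptional coactivator of the heat response, rose by 0.91 ± 0.06 in leaves and 0.83 ± 0.08 in roots (limma adjusted p = 1.07e-08 and 7.21e-07). HSFA2, a factor that sustains the expression of small heat shock proteins, rose by 0.61 ± 0.16 and 0.74 ± 0.10 (limma adjusted p = 0.00748 and 0.000113). Taken singly, HSFA2 was called in *met1-7* leaves and in Col-0 and *elp2-5* roots. It was not called in Col-0 leaves, *elp2-5* leaves or *met1-7* roots (limma adjusted p = 0.205, 0.688 and 0.482). HSF4 (HSFB1) rose by 0.63 ± 0.13 and 0.23 ± 0.06, and AT-HSFB2B by 0.22 ± 0.05 and 0.30 ± 0.04. By genotype the leaf value of HSF4 was 1.00 in Col-0, 0.70 in *met1-7* and 0.20 in *elp2-5*, the last not called. One regulator, HSFA1E, was called lower in leaves (-0.25 ± 0.07, limma adjusted p = 0.0121), where 7.72% of all genes were called lower, and it was named after its value was seen. In roots 0 regulators were called lower, beside 6.84% of all genes.

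Among the 15 large chaperones tested, 8 were called higher in FT leaves and 8 in FT roots, and 0 lower. Of all genes, 21.5% in leaves and 14.1% in roots were called higher, and 7.72% and 6.84% lower. The genes named next were picked by their small p in this same comparison. HSP90.1, the inducible cytosolic HSP90, rose by 1.16 ± 0.13 in leaves and 1.01 ± 0.06 in roots (limma adjusted p = 6.59e-06 and 1.72e-09). HSP70, an inducible refolding chaperone, rose by 1.23 ± 0.13 and 0.69 ± 0.06 (limma adjusted p = 4.26e-06 and 1.31e-07). HSP101, the disaggregase that works with small heat shock proteins, rose by 0.53 ± 0.07 and 0.51 ± 0.04, and AT5G48570 (ROF2), a co-chaperone, by 0.86 ± 0.09 and 0.76 ± 0.05. The median log2 fold changes over the lists were 0.22 and 0.34 for other small heat shock proteins, 0.17 and 0.14 for regulators and 0.13 and 0.18 for large chaperones in leaves and roots, beside 0.05 and 0.03 over all genes. In bulk tissue a change in the share of cells that express a gene and a change in RNA per cell cannot be told apart.

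**Figure D5:**
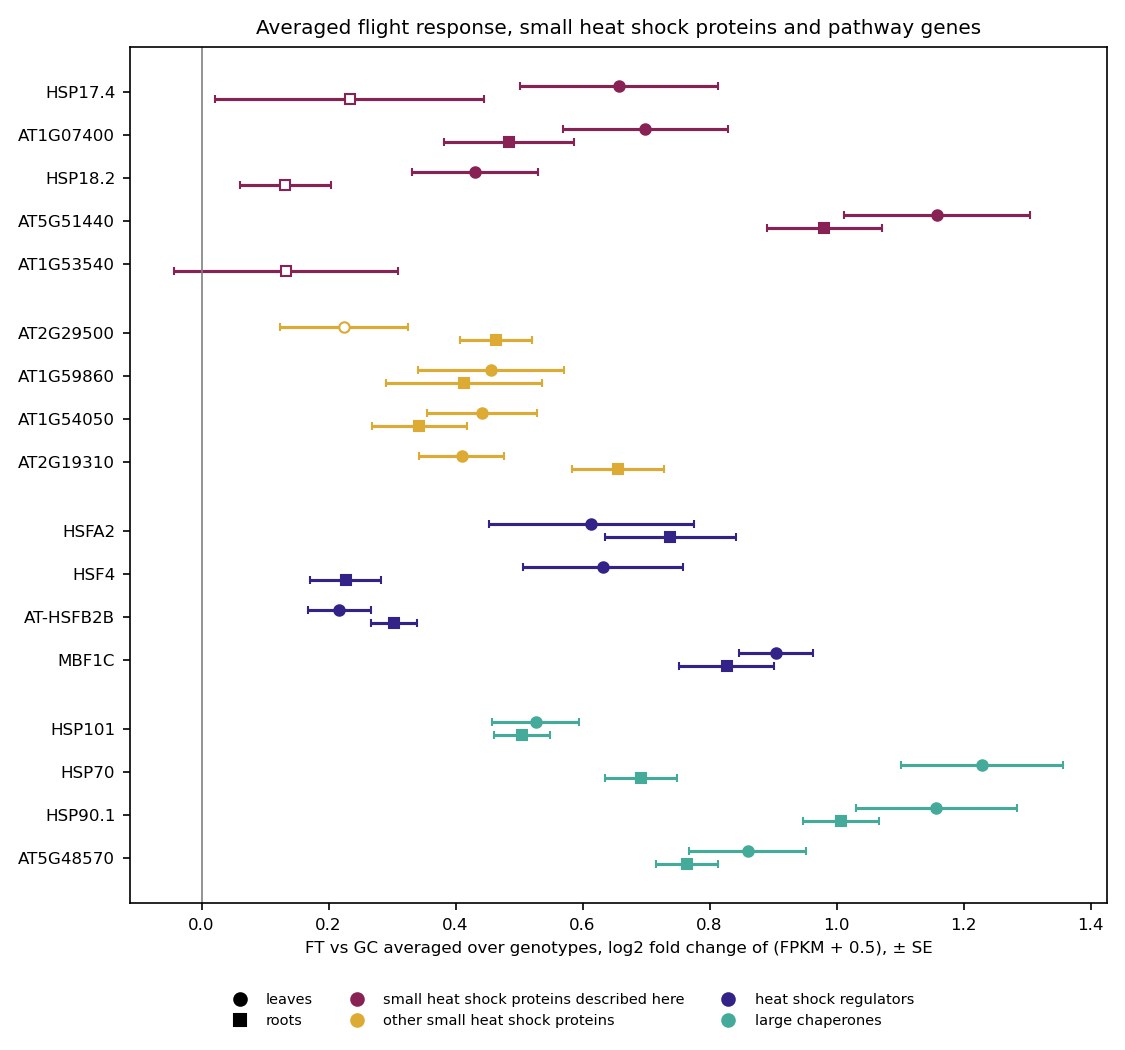
Log2 fold change of FPKM + 0.5 between FT and GC averaged over the 3 genotypes, with bars of 1 SE, for the tested small heat shock protein genes and the named genes of the 3 lists, with leaves as circles, roots as squares and filled points for an adjusted p under 0.05. AT5G51440 at 1.16 and 0.98 lies beside HSP90.1 at 1.16 and 1.01, *HSP18.2* in roots lies at 0.13, and the leaf point of *HSP17.4* is a description, since the gene entered mostly through FT libraries.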

How the data were processed

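Leaf and root libraries, 48 in all, came as FPKM in separate tables, and groups came from the sample labels. According to the study's methods, poly(A) RNA was sequenced in paired reads, and the FPKM deposited by the authors were computed with RSEM after trimming with Trimmomatic and alignment with STAR to TAIR10. Where reads fit related genes RSEM divides them, which can blur values of similar members. The expected counts used in the study with edgeR were not used here. FPKM were used as deposited, and median-ratio scaling and quantile normalization were alternatives, since FPKM shift with the composition of a library.

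For each organ, limma 3.58.1 (R 4.3.3) estimated 6 group means of log2(FPKM + 0.5), using eBayes with a mean-variance trend and robust estimation. Two-sided p-values received a Benjamini-Hochberg adjustment over all genes tested, separately for each of 24 comparisons. The fit was tested on simulated data. Further alternatives were a pseudocount of 0.1 or 1 FPKM, testing without the filter, a block for the replicate number, a fit of only the libraries compared, and leaving out single libraries. For members below the filter, a pseudocount of 0.1 FPKM and leaving out single libraries, both without the filter, were chosen after seeing the data, as was leaving *HSP17.4* out of the counts and medians of members in leaves.

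FPKM carry no counts, so no interval or detection limit was computed. Relative depth was estimated from 116 genes in leaves and 129 in roots whose non-zero values were similar and occurred in a few libraries only. Replicates of a group were separate pools of plants. By the study's methods leaves and roots were dissected from the same samples, so the results of the organs are not independent of each other.

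The members and lists were chosen with earlier results of these data known. All 10 members are named. Up to 4 genes of each other list are named, those with the smallest p in the averaged flight response, 2 from leaves and then 2 from roots. The 5 genes of each organ most like the members are also named. Symbols, coordinates and sequences are from RefSeq TAIR10.1, in which all 10 members and 32548 of 32833 locus tags were found. Coding sequences were aligned with Biopython 1.88 and searched against the genome with BLAST 2.17.0. Python 3.11.15 with pandas 2.3.3, numpy 2.4.6 and matplotlib 3.10.9 was used for summaries and figures.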

Additional observations from a re-analysis of the deposited data

Results flagged for a closer look

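In 8 of the 120 sets of 4 replicates, 1 library stood far above the other 3. By Dixon's outlier rule about 1 in 20 sets of normally distributed values is flagged, counting high and low sides together. Values near 0 are not normally distributed, so that rate is a rough guide only. A set with 1 value above 0 is always flagged, as for *HSP21*. On the log2 scale the *HSP17.6A* and *HSP17.6II* sets were no longer flagged. Each value is given without explanation. *HSP17.6A* was at 2.31 FPKM in met1-7 FT leaf replicate 2, beside 0.39 to 0.66 in the other replicates, and at 4.39 in elp2-5 GC root replicate 2, beside 0.23 to 0.73. *HSP17.6II* was at 1.94 in Col-0 FT root replicate 4, beside 0.22 to 0.51, and *HSP23.6-MITO* was at 0.86 in the same library, beside 0.22 to 0.23. *HSP18.2* was at 9.63 in Col-0 FT leaf replicate 1, beside 7.45 to 7.78. *HSP21* was at 0.06 in Col-0 FT leaf replicate 4, at 0.04 in Col-0 GC leaf replicate 3 and at 0.04 in elp2-5 FT leaf replicate 4, and was listed at 0 in the other replicates of these groups.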

How the results depend on the processing

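The values are FPKM without counts, so counting error is unknown for every member, and it weighs most on those below 1 FPKM. For 43 values of single members, 778 alternative values were computed, of which 0 changed sign, 49 lost the call and 12 gained it, and the cause was not tested. The 43 were picked by outcome. They had an unadjusted limma p under 0.05 or a call under another setting, or were calls of members below the filter. Values near 0 were thus mostly left out, so the lack of sign changes does not describe every member value. The number of members called, *HSP17.4* included, changed as follows. With only the libraries compared it fell from 2 to 0 in FT vs GC in Col-0 leaves and in Col-0 roots, and from 1 to 0 for *elp2-5* vs Col-0 in GC roots. Without the filter, which adds genes and so tests more members, it went from 0 to 1 in FT vs GC in *elp2-5* leaves, from 0 to 1 for *elp2-5* vs Col-0 in FT leaves, from 2 to 1 in FT vs GC in Col-0 roots, from 1 to 3 for *elp2-5* vs Col-0 in GC roots, from 0 to 1 for *met1-7* vs Col-0 in FT roots and from 1 to 2 in the averaged *met1-7* vs Col-0 roots. Median-ratio scaling moved it from 2 to 1 in the averaged *elp2-5* vs Col-0 leaves and in FT vs GC in Col-0 roots, and quantile normalization from 2 to 1 in the latter. In the averaged *elp2-5* vs Col-0 leaves quantile normalization also replaced the 2 members called higher by 2 others called lower. A pseudocount of 0.1 FPKM moved FT vs GC in *elp2-5* leaves from 0 to 1. FT vs GC in *met1-7* leaves went from 3 to 4 with that pseudocount and from 3 to 2 with quantile normalization and with only the libraries compared, and the averaged flight count in leaves from 4 to 5 without the filter.

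When single libraries were left out, the count ranged from 2 to 3 in FT vs GC in Col-0 leaves, 2 to 4 in FT vs GC in *met1-7* leaves, 1 to 2 for *elp2-5* vs Col-0 in GC leaves, 0 to 1 for *elp2-5* and for *met1-7* vs Col-0 in FT leaves, 0 to 1 for the averaged *met1-7* vs Col-0 leaves, 1 to 2 in FT vs GC in Col-0 roots, 0 to 1 in FT vs GC in *met1-7* roots, 0 to 2 for *elp2-5* and for *met1-7* vs Col-0 in GC roots and 0 to 1 for *met1-7* vs Col-0 in FT roots. The averaged flight counts were 4 in leaves, *HSP17.4* included, and 2 in roots throughout these. *HSP17.4* entered mostly through FT libraries, so its part in the leaf count is a description only. AT5G51440, AT1G07400 and *HSP18.2* were each called in all 30 alternatives of the averaged leaf comparison. Replicate numbers are shared between groups only as numbers. Deviations of same-numbered libraries correlated at -0.20 to 0.13 in leaves and -0.16 to 0.14 in roots, so the numbers did not pair the libraries, and of 60 comparisons in each organ the own number was the best match in 14 and 15. With the replicate block, the count moved from 0 to 1 in FT vs GC in *elp2-5* leaves through AT5G51440 (1.05, limma adjusted p = 0.0479), and from 2 to 3 in Col-0 leaves through AT1G07400 (0.66, limma adjusted p = 0.0329). It changed no other call. Median-ratio scaling moved 0 of 120 group means of the members by more than their SD, and the number of group means of at least 1 FPKM was 50 in both.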

Other observations

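The upstream stretches held a further shared string that was noticed after they were read. TGGGCC or TGGGCT, on either strand, occurred in the 250 bases before 9 of the 10 small heat shock protein genes, all but *HSP21*, and before 19.2% of 27443 protein-coding genes. It occurred before 2 of 9 other small heat shock protein genes, AT2G29500 and AT1G59860, both class I. The match is a description of letters and was not related to the levels.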
